A study of Mus musculus with 6 samples.

Results

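The collagens and the stromal matrix genes made with them were examined in tumor-associated macrophages (TAMs) of a mouse melanoma. The rule for the group uses gene symbols and a minimum count, and it was set with earlier results of these data known. It holds every protein-coding gene named as a numbered collagen chain and 16 others that build, fold or cross-link the same matrix. By symbol 55 genes qualified, and the 51 with at least 10 read counts summed over all libraries were kept, 35 of them collagens, among 14776 protein-coding genes tested and 23424 genes in the tables. The 4 others were *Col9a2* with 3 counts in total, *Col6a4* with 1, *Col28a1* with 8 and *Col22a1* with 0.

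The data are bulk RNA-seq of 2 subsets of TAMs, F4/80high and F4/80low, named for the level of the surface protein F4/80, which *Adgre1* encodes. The tumors were grown from YUMM1.7, a mouse melanoma cell line, injected intradermally into WT C57Bl/6J females at the age of 8 weeks that received no treatment, and were taken on day 21. Live+CD45+Lin-CD11b+ cells were divided by F4/80, a gate that should leave out fibroblasts, endothelial cells and melanoma cells, since these lack CD45. Each subset has 3 libraries from 3 independent experiments of 10 pooled tumors each, so 1 library is a pool, and the number of mice in it is not given in the sources used here. Both subsets of 1 experiment share their replicate number.

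Collagens are secreted proteins of several chains wound into a helix. Fibrillar collagens form the cables of skin and tumor stroma, type IV collagens the sheets under epithelium and around vessels, and the fibril-associated types sit on the surface of the cables. New chains are hydroxylated and folded in the endoplasmic reticulum and are cross-linked outside the cell by lysyl oxidases. In skin and tumors fibroblasts are the main source. Macrophages are better known for taking up and degrading collagen, through receptors such as the one encoded by *Mrc1*, although they are also known to make type VI collagen.

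The F4/80high library held less RNA of this group than its F4/80low partner in replicate 2 and, by less, in replicate 3, while in replicate 1 the sums were close and their order depended on the scaling. Summed over the 51 genes, the level was 2692, 1342 and 2915 CPM (counts scaled to the TMM-normalized library size) in F4/80high replicates 1, 2 and 3 and 2927, 2878 and 3461 CPM in F4/80low replicates 1, 2 and 3. The log2 difference of the sums, F4/80high minus F4/80low, was -0.12, -1.10 and -0.25 within replicates 1, 2 and 3. Per total count of the library it was -0.0073 within replicate 1, and 0.0068 there without the 3 genes with the most counts. The groups overlapped, since F4/80high replicate 3 exceeded F4/80low replicate 2, and F4/80high replicate 2 stood alone at the bottom. No single gene of the group passed the test (below), so the sums are a description.

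The largest contributors were *Sparc*, *Col1a2* and *Col3a1*. Without these 3 the remaining 48 genes summed to 1588, 922 and 1444 CPM in F4/80high replicates 1, 2 and 3 and to 1710, 1770 and 1595 CPM in the F4/80low ones. The group took 0.362%, 0.162% and 0.188% of the counts on tested genes in the F4/80high libraries and 0.361%, 0.370% and 0.208% in the F4/80low libraries. In bulk RNA, fewer cells that make a transcript and less transcript per cell cannot be told apart.

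**Figure D1:**
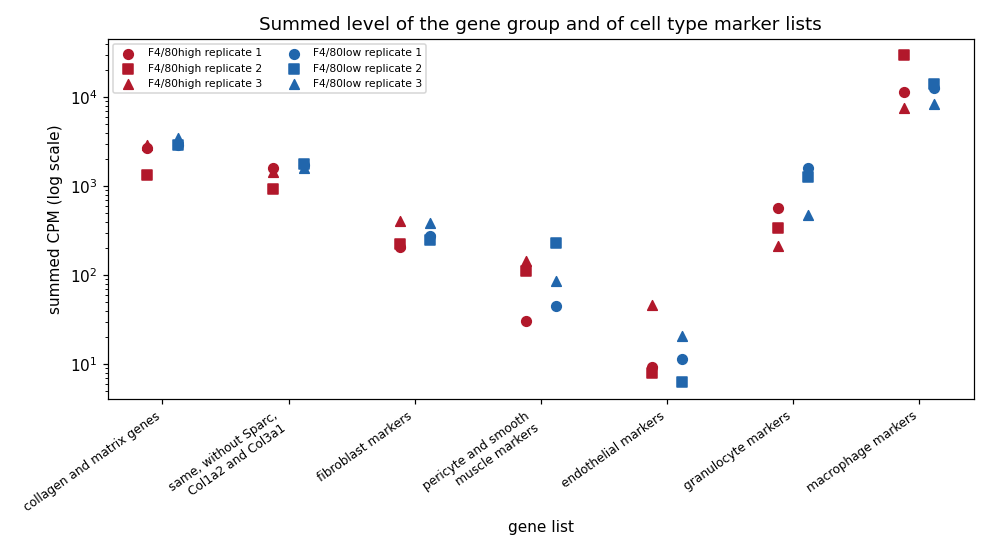
Summed CPM (log axis) of the 51 collagen and matrix genes, of the same without *Sparc*, *Col1a2* and *Col3a1*, and of 5 marker lists, with 1 point per library (red F4/80high, blue F4/80low, shape by replicate). F4/80high replicate 2 has the lowest collagen and matrix sum, 1342 CPM, and the highest macrophage marker sum, 29676 CPM.

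Marker lists were read beside the sum, and their part in it was not tested. By summed level, the granulocyte list was lower in F4/80high in each of the 3 pairs, like the collagen and matrix sum. The other lists were not, but the fibroblast sum was raised by *Pdpn* in F4/80high replicates 2 and 3 (below). The sums thus do not set granulocytes apart from fibroblasts. Macrophage markers (11 of 11 tested, 7 with a positive log2 fold change, median 0.42) summed to 11516, 29676 and 7616 CPM in the F4/80high libraries and to 12673, 14172 and 8304 CPM in the F4/80low libraries. The log2 differences were -0.14, 1.07 and -0.12 within replicates 1, 2 and 3, so the library with the least collagen RNA had the most macrophage marker RNA. *Lyz2* was a large part of these sums, at 4666, 16106 and 2042 CPM in F4/80high and 5914, 6482 and 3230 CPM in F4/80low. No macrophage sum without *Lyz2* was taken. Within replicates 1, 2 and 3, 5, 1 and 5 of the 11 markers were lower in F4/80high. Fibroblast markers (12 of 12 tested, 10 with a negative log2 fold change) summed to 207, 224 and 411 CPM in F4/80high and to 272, 251 and 382 CPM in F4/80low, with log2 differences of -0.40, -0.16 and 0.11. Within replicates 1, 2 and 3, 5, 11 and 8 of the 12 were lower in F4/80high, with median log2 differences of 0.12, -0.83 and -0.24. *Prrx1*, a mesenchymal transcription factor, was at 22.4 to 82.5 CPM in F4/80high and 29.0 to 99.9 CPM in F4/80low, with a log2 fold change of -0.33. *Pdgfra*, a receptor that marks fibroblasts, was at 18.1 to 98.7 and 51.1 to 91.0 CPM, with a log2 fold change of -0.78. Both were lower in F4/80high in 2 of 3 pairs. *Pi16*, with a log2 fold change of -1.49, was not called by edgeR with batch. It was called by edgeR with the block (adjusted p 0.0363) and by DESeq2 with batch (adjusted p 0.00813). *Thy1*, higher in F4/80high in 2 of 3 pairs, had a log2 fold change of 0.97. *Pdpn*, at 1.63 and higher in F4/80high in 3 of 3 pairs, was called by DESeq2 with the block (adjusted p 0.0150) and by neither edgeR fit. It was at 19.2, 129 and 149 CPM in F4/80high and 15.5, 23.7 and 72.4 CPM in F4/80low. *Pdpn* was thus a large part of the fibroblast sum in F4/80high replicates 2 and 3, against most markers of the list. A sum without it was not taken. The 149 CPM was the highest single value of the list, and *Cdh11* had the lowest level, at most 0.123 CPM. *Clec3b* had 0 counts in every F4/80high library. Granulocyte markers (10 of 10 tested, 10 with a negative log2 fold change) summed to 213 to 574 CPM in F4/80high and 469 to 1594 CPM in F4/80low, with log2 differences of -1.47, -1.89 and -1.14. *Ngp* had the highest and *Epx* the lowest level of that list, and *Lyz2* and *Mertk* those of the macrophage list.

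Other cell types outside the gate were at lower sums, taken over the listed markers that were among the deposited genes. Pericyte and smooth muscle markers summed to 30.4 to 143 CPM in F4/80high and 45.4 to 229 CPM in F4/80low. *Acta2* led in replicate 2 of both subsets, with 168 CPM in F4/80low. *Cspg4* led in replicates 1 and 3 of both, with 101 CPM in F4/80high replicate 3. *Des* stayed at or below 0.466 CPM. Endothelial markers summed to 7.99 to 45.8 CPM and 6.21 to 20.5 CPM, with *Kdr* the highest at 38.9 CPM in F4/80high replicate 3, and *Tek* had 1 count in all. Melanoma cell markers summed to 20.4 to 176 CPM and 14.5 to 109 CPM, mostly from *Mitf*, which macrophages also express, with *Mlana* at 1 count in all. Only 6 of the 10 listed were among the deposited genes, without *Tyr*, *Tyrp1*, *Dct* and *Slc45a2*. Keratinocyte markers summed to 5.51 to 17.8 CPM and 13.8 to 22.3 CPM, led by *Perp* or *Sfn*, with *Dsp* at 0 counts in every library. Here 5 of the 8 listed were among the deposited genes, without *Krt5*, *Krt14* and *Krt1*. The melanoma cell and keratinocyte sums thus lack several markers and cannot be set against the complete lists.

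The test of each gene was edgeR's quasi-likelihood test with batch as a term, over all 14776 genes, with a gene called where its p, adjusted over all of them by Benjamini-Hochberg, was under 0.05 and its log2 fold change was above 1 in size. A positive log2 fold change means higher in F4/80high. With this test 0 of the 51 genes were called, and 0% of all genes tested. The lowest adjusted p was 0.471 among the 51 and 0.443 among all genes. At an unadjusted p under 0.05 there was 1 of the 51 genes, against 7.57% of all genes. *Adgre1* itself, at 273, 539 and 360 CPM in F4/80high and 243, 326 and 183 CPM in F4/80low, had a log2 fold change of 0.67 with a standard error (SE) of 0.30 and an adjusted p of 0.673 by edgeR, although it was higher in 3 of 3 replicate pairs.

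With experiment as a block (1 level per replicate number) instead of batch, edgeR called 0.514% of all genes and again 0 of the 51. The lowest adjusted p of the 51 was then 0.140, of *Col14a1*. At an unadjusted p under 0.05 the block gave 9 of the 51, 1 higher and 8 lower, against 9.84% of all genes. DESeq2 with batch called 1.02% of all genes and 1 of the 51, *Col27a1*. DESeq2 with the block called 2.42% of all genes and 2 of the 51, *Col14a1* as higher and *Col27a1* as lower in F4/80high. The call of *Col27a1* thus depended on the tool, and that of *Col14a1* on the tool and the block. edgeR with the block also called *Col14a1* without replicate 1 of both subsets, at an adjusted p of 0.0147.

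The signs leaned one way all the same. Of the 51 log2 fold changes 42 were negative and 9 positive, with a median of -0.50, while over all genes tested the median was 0.01 and 50.8% were positive. Within replicates 1, 2 and 3 the median log2 difference of the 51 genes was -0.09, -1.31 and -0.23, and over all genes 0.01, -0.02 and 0.00. The share of the 51 that was lower in F4/80high was 62.7%, 86.3% and 58.8%, against 48.2%, 51.02% and 46.0% of all genes. In all 3 pairs 18 of the 51 (35.3%) were lower and 2 (3.92%) higher, against 15.7% and 16.0% of all genes. The 3 libraries of F4/80high all lay below the 3 of F4/80low for 2 of the 51, *Col20a1* and *Col17a1*, neither above 1.18 CPM in any library, and for 2.88% of all genes. The opposite order held for 0 of the 51 and for 2.27% of all genes.

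Replicate 2 set much of the size of this lean. F4/80high replicate 2 was the single lowest of the 6 libraries for 28 of the 39 genes with a mean of at least 1 CPM (71.8%), and for 20.2% of all genes at that level. Without F4/80high replicate 2 the median of the 51 log2 fold changes was -0.24, and without replicate 2 of both subsets -0.18. Without F4/80high replicate 1 it was -0.92, and 20 of the 51 then had an unadjusted p under 0.05 by edgeR against 13.6% of all genes, with 0 of the 51 called. These 39 genes had a median of -0.48 with 33 negative and 6 positive. For 3 genes, *Col4a3*, *Col2a1* and *Col13a1*, each F4/80high library held no more than 3 counts, and the median with these at their bound was also -0.50.

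**Figure D2:**
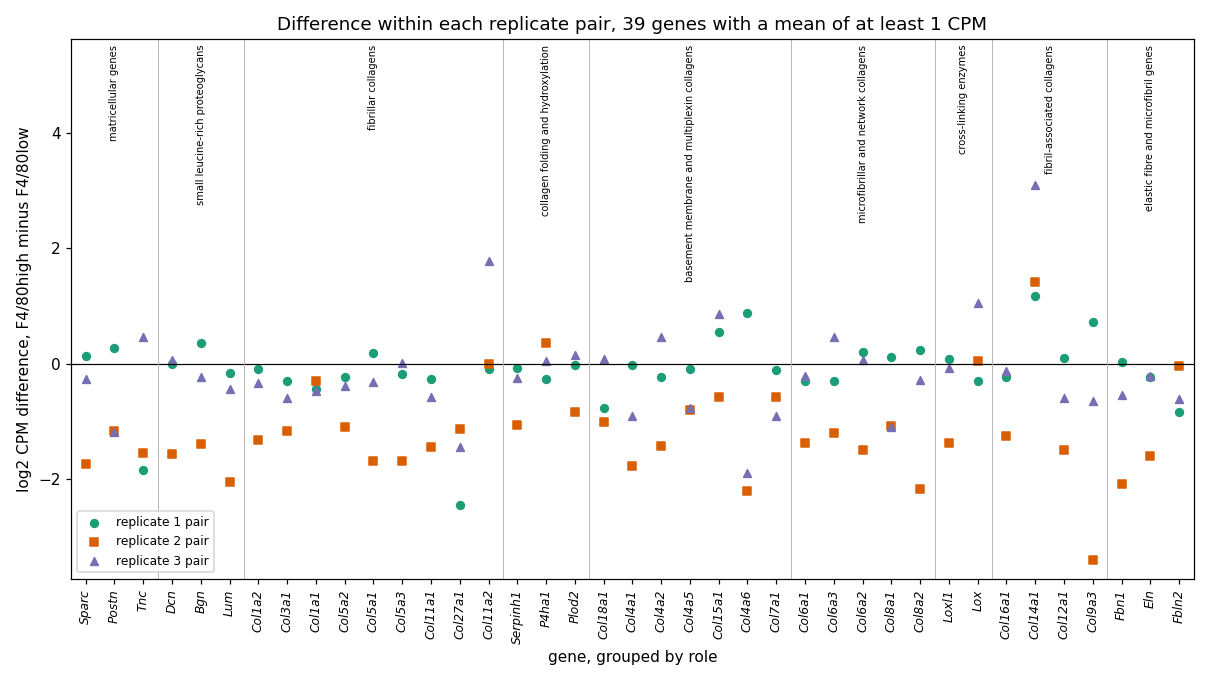
Log2 CPM difference (prior count 2), F4/80high minus F4/80low, within each of the 3 replicate pairs for the 39 genes with a mean of at least 1 CPM, grouped by role, with 1 point per pair. In the replicate 2 pair 36 of the 39 points lie below 0, and *Col14a1* is above 0 in all 3 pairs.

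The fibrillar collagens, the cable-forming chains, gave the most reads. Their summed level was 1041, 392 and 1447 CPM in F4/80high replicates 1, 2 and 3 and 1214, 885 and 1873 CPM in F4/80low. Of 11 tested, 9 had a negative log2 fold change, with a median of -0.50, and 0 were called by edgeR with batch.

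*Col1a2* (ENSMUSG00000029661, chromosome 6, 4504814 to 4541544, GRCm38), the second chain of type I collagen, was at 347, 133 and 1037 CPM in F4/80high and 370, 328 and 1298 CPM in F4/80low. F4/80high was lower in every pair, but the pairs lay so far apart that the groups overlapped. Its log2 fold change was -0.47 (SE 0.34). *Col1a1*, the first chain of the same protein, was at 75.4, 42.2 and 87.0 CPM in F4/80high and 101, 51.9 and 121 CPM in F4/80low, again lower in F4/80high in every pair, with a log2 fold change of -0.41.

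*Col3a1* (ENSMUSG00000026043, chromosome 1, 45311538 to 45349706), the chain of type III collagen, which is found with type I in skin, was at 491, 162 and 158 CPM in F4/80high and 606, 361 and 238 CPM in F4/80low. Each F4/80high library was below its partner, while F4/80high replicate 1 exceeded 2 of the F4/80low libraries. The log2 fold change was -0.57 (SE 0.39) with batch and -0.68 (SE 0.22, edgeR adjusted p 0.301) with the block. *Col5a2*, a type V chain that helps start type I fibrils and lies 24614 bases from *Col3a1* on the opposite strand, was at 56.2, 25.6 and 73.4 CPM in F4/80high and 65.5, 54.4 and 96.2 CPM in F4/80low, with a log2 fold change of -0.50 (SE 0.30). Both neighbors were thus lower in F4/80high in 3 of 3 pairs.

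*Col27a1* (ENSMUSG00000045672, chromosome 4, 63214004 to 63334991), a fibrillar collagen known from cartilage, had the largest difference toward F4/80low among genes of the group at 1 CPM or more. It was at 0.832, 1.75 and 7.13 CPM in F4/80high and 4.81, 3.90 and 19.4 CPM in F4/80low. Every F4/80high library was below its partner, by 2.45, 1.13 and 1.43 on the log2 scale, and F4/80high replicate 3 exceeded F4/80low replicates 1 and 2. The log2 fold change was -1.65 (SE 0.44), with an adjusted p of 0.471 by edgeR with batch, 0.209 by edgeR with the block, 0.0333 by DESeq2 with batch and 0.0263 by DESeq2 with the block. These values rest on 33 to 192 counts per library.

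*Col11a2*, a type XI chain, was at 2.07, 1.61 and 5.61 CPM in F4/80high and 2.205, 1.62 and 1.59 CPM in F4/80low. The first 2 pairs were nearly equal and only replicate 3 differed, so that its log2 fold change of 0.52 (SE 0.66) became -0.06 without replicate 3. *Col24a1* was higher in F4/80high in all 3 pairs, but on 28, 19 and 1 counts against 1, 11 and 0.

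To show sequence in front of the RefSeq starts of genes that were lower in every pair, 250 bases before that start (GRCm38.p6) are printed. They are given for genes described in every library that have 1 RefSeq start and no GENCODE M21 exon within these bases. The genes are *Col3a1*, *Serpinh1*, which encodes the collagen chaperone HSP47, and *Col27a1*. The windows lie at chr1:45311288-45311537 on the plus strand, chr7:99353240-99353489 on the minus strand and chr4:63215162-63215411 on the plus strand. That of *Col27a1* lies inside the M21 span of the gene, which starts at 63214004, and so not in front of the M21 start. Capitals mark 3 short promoter motifs on either strand, the TATA box as TATAAA, the CCAAT box by its name, and the GC box as GGGCGG. None overlapped in these windows.
Col3a1: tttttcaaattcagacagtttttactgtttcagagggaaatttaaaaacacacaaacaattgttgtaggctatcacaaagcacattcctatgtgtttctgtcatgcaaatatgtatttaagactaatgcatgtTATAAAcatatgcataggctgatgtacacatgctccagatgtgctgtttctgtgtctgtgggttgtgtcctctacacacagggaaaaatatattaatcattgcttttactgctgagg
Serpinh1: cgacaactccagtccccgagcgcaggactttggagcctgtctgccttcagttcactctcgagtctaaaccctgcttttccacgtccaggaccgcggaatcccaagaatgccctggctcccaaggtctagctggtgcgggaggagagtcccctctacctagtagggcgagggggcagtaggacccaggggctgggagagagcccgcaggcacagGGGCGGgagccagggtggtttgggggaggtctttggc
Col27a1: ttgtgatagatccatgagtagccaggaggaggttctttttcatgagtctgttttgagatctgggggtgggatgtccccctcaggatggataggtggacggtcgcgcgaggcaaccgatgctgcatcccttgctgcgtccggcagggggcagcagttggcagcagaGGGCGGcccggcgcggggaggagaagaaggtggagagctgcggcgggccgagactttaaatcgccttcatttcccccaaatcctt
*Col3a1* holds 1 TATAAA and neither of the others, while *Serpinh1* and *Col27a1* hold 1 GGGCGG each. Of the 51 genes 37 matched the RefSeq promoter table, with 42 starts. TATAAA was in 19% of these and in 12.4% of all 32851 promoters, CCAAT in 26.2% and 33.8%, and GGGCGG in 61.9% and 32.7%, in windows of the same length. These matches are letters in a window and say nothing of a factor.

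The basement membrane collagens and multiplexins were led by *Col18a1*. This chain, which is cut to release endostatin, lies at chromosome 10, 77052178 to 77166548, and was at 141, 93.8 and 174 CPM in F4/80high and 238, 187 and 164 CPM in F4/80low. Replicates 1 and 2 were lower in F4/80high and replicate 3 slightly higher, with a log2 fold change of -0.55 (SE 0.29). Of the 9 tested, 8 had a negative log2 fold change, with a median of -0.57, and 0 were called.

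*Col4a1* and *Col4a2*, the chains of the common type IV collagen, lie head to head on chromosome 8, and their annotated starts overlap by 22 bases. *Col4a1* was at 44.1, 9.62 and 20.4 CPM in F4/80high and 44.5, 32.8 and 38.1 CPM in F4/80low, and *Col4a2* at 17.8, 4.71 and 12.6 CPM and 20.9, 12.7 and 9.11 CPM. The F4/80high value of *Col4a1* was below its partner in every pair, but that of *Col4a2* was above it in replicate 3. Their log2 fold changes were -0.65 and -0.25. Whether strand was used in counting is not given in the sources used here, so reads in the overlap could have been split.

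*Col15a1*, the other multiplexin, was at 8.49, 3.01 and 10.8 CPM in F4/80high and 5.74, 4.49 and 5.92 CPM in F4/80low, with replicate 2 going against the other pairs and a log2 fold change of 0.39 (SE 0.48). The pair *Col4a4* and *Col4a3*, 71 bases apart and head to head, was close to 0, with at most 1.19 CPM of *Col4a4* in any library.

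Among the microfibrillar and network collagens the type VI chains, which form beaded filaments around cells, had nearly all reads. *Col6a1* was at 69.3, 37.5 and 58.6 CPM in F4/80high and 85.1, 96.4 and 67.4 CPM in F4/80low. F4/80high was lower in each pair, and F4/80high replicate 1 was just above F4/80low replicate 3. Its log2 fold change was -0.58 (SE 0.28). *Col6a2* and *Col6a3*, the partner chains, had log2 fold changes of -0.33 and -0.34 and were lower in F4/80high in 1 and 2 of the 3 pairs. *Col8a2*, a network collagen known from the cornea, was at 3.10, 0 and 0.648 CPM in F4/80high and 2.61, 0.221 and 0.797 CPM in F4/80low, with a log2 fold change of 0.00 (SE 1.62), so no direction can be given at this depth. In this class 4 of 6 were negative, with a median of -0.33.

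The fibril-associated class held the largest positive log2 fold change among the 39 genes with a mean of at least 1 CPM. *Col14a1* (ENSMUSG00000022371, chromosome 15, 55307750 to 55520803), whose product coats type I fibrils, was at 5.04, 39.5 and 9.29 CPM in F4/80high and 2.205, 14.7 and 1.02 CPM in F4/80low. It was higher in F4/80high in every pair, by 1.17, 1.42 and 3.10 on the log2 scale, while replicate 2 was the highest library of both subsets, so the groups overlapped. With batch the log2 fold change came to 1.86 (SE 0.87, edgeR adjusted p 0.683), and to 1.79 (SE 0.43, edgeR adjusted p 0.140) with the block. DESeq2 gave an adjusted p of 0.293 with batch and 0.00368 with the block. Leaving out F4/80high replicate 2 gave a log2 fold change of 0.79, and leaving out F4/80low replicate 2 gave 3.28. F4/80high replicate 2 was the highest library for *Col14a1* and the lowest for the group's sum, and the other 4 genes of the class (*Col16a1*, *Col12a1*, *Col9a3*, *Col20a1*) had negative log2 fold changes.

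Transmembrane collagens were low, with at most 50 counts in any library. The 4 tested, *Col23a1*, *Col25a1*, *Col17a1* and *Col13a1*, summed to between 0.233 and 2.32 CPM in F4/80high and between 1.18 and 1.95 CPM in F4/80low, where 3 counts stand for 0.0582 to 0.342 CPM. *Col17a1*, a collagen of the keratinocyte anchor to the basement membrane, was at 0, 0.0776 and 0.108 CPM in F4/80high and 0.601, 0.417 and 0.569 CPM in F4/80low.

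**Figure D3:**
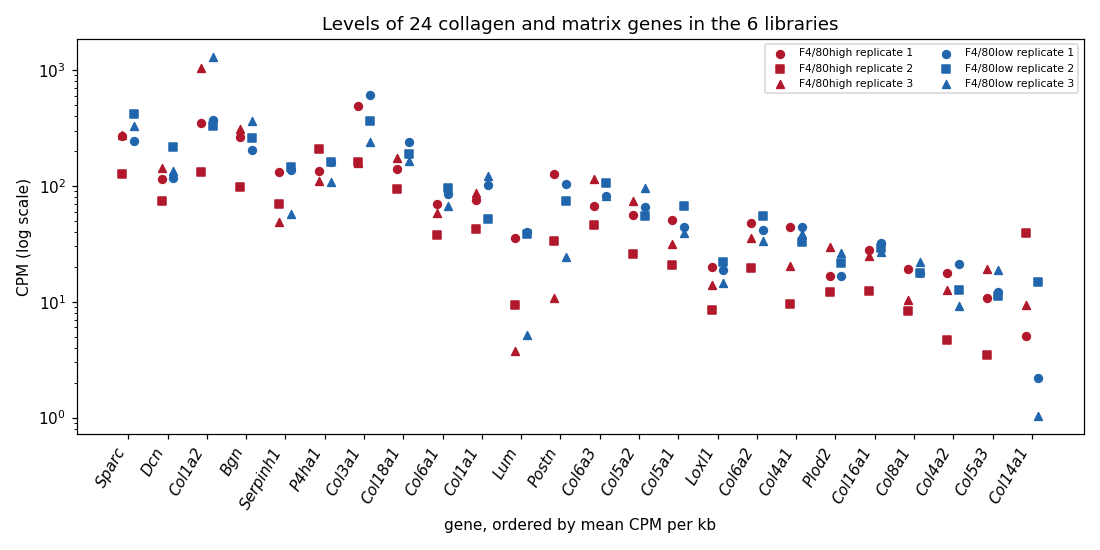
CPM (log axis) of the 24 genes with the highest mean CPM per kb in each of the 6 libraries (red F4/80high, blue F4/80low, shape by replicate). The red square of F4/80high replicate 2 is the lowest point for 18 of the 24 genes, while for *Col14a1* that square is the highest at 39.5 CPM.

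Compared per length, as the mean CPM per kb of the deposited gene length over the 6 libraries, the highest genes were not the chains with the most reads. *Sparc*, which encodes the collagen-binding protein osteonectin, was at 82.2 CPM per kb, *Dcn* at 63.8, *Col1a2* at 48.2, *Bgn* at 40.9, *Serpinh1* at 40.4, *P4ha1* at 35.8, *Col3a1* at 34.2 and *Col18a1* at 23.7. *Sparc* was at 267, 126 and 276 CPM in F4/80high and 242, 419 and 330 CPM in F4/80low. Only replicate 2 differed by much, and the log2 fold change was -0.59 (SE 0.34). *Tnc*, encoding tenascin C, was at 1.03, 0.970 and 7.88 CPM in F4/80high and 3.86, 2.95 and 5.69 CPM in F4/80low, lower in replicates 1 and 2 and higher in replicate 3, with a log2 fold change of -1.05 (SE 0.62). *Postn*, the third of these matricellular genes, had a log2 fold change of -0.48.

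The small leucine-rich proteoglycans, which bind collagen fibrils and set their width, behaved like *Sparc*. *Dcn* was at 116, 73.5 and 142 CPM in F4/80high and 116, 215 and 135 CPM in F4/80low, with a log2 fold change of -0.52 (SE 0.33). *Bgn* was at 263, 97.7 and 311 CPM and 205, 257 and 364 CPM, with -0.32 (SE 0.34). For both genes the replicate 2 pair, at -1.55 for *Dcn* and -1.39 for *Bgn* on the log2 scale, was much further apart than the replicate 1 and 3 pairs. *Lum* had a log2 fold change of -0.70 and was lower in F4/80high in all 3 pairs. The 5 elastic fibre and microfibril genes, *Eln*, *Fbn1*, *Fbln1*, *Fbln2* and *Mfap5*, had a median log2 fold change of -0.62, with 5 negative and 0 called.

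Of the folding and hydroxylation genes *Serpinh1*, *Plod2* and *P4ha1*, 2 had a negative log2 fold change, with a median of -0.23, and of the cross-linking enzymes *Lox* and *Loxl1* 1 did. *Serpinh1* was at 131, 69.9 and 48.4 CPM in F4/80high and 138, 145 and 57.3 CPM in F4/80low, lower in each pair, with a log2 fold change of -0.41 (SE 0.27). *P4ha1*, a subunit of the prolyl hydroxylase that stabilizes the helix, was at 134, 209 and 110 CPM and 161, 162 and 107 CPM. Its pairs went both ways, with a log2 fold change of 0.07 (SE 0.23). *Lox*, which cross-links collagen and elastin, was at 7.66, 7.92 and 10.04 CPM in F4/80high and 9.42, 7.64 and 4.78 CPM in F4/80low, with a log2 fold change of 0.25 (SE 0.39) that became -0.13 without replicate 3.

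**Figure D4:**
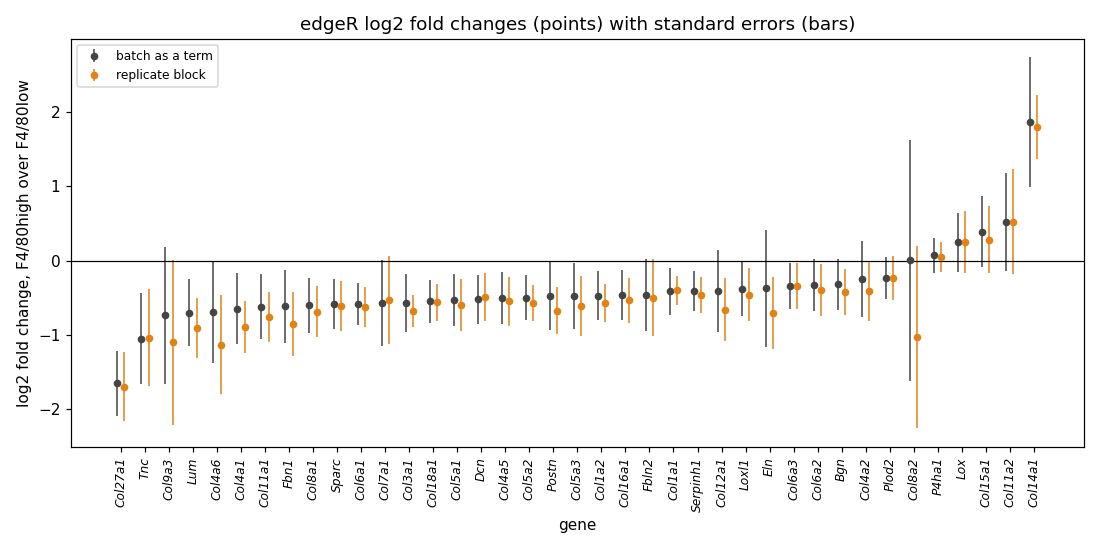
edgeR log2 fold changes, F4/80high over F4/80low, of the 39 genes with a mean of at least 1 CPM (points) with standard errors (bars), with batch as a term (gray) or the replicate block (orange). Of the 39 values with batch 33 lie below 0, from -1.65 for *Col27a1*, and *Col14a1* at 1.86 stands apart above 0.

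The sample labels give no batch. As read from the study's PCA plot, replicates 1 and 2 of both subsets are batch 1 and replicate 3 of both is batch 2. Batch 2 and the third experiment thus cannot be told apart. For the batch term 8 of the 51 genes had an edgeR adjusted p under 0.05, against 42.4% of all genes. *Col1a2*, *Col11a1*, *Col27a1* and *Tnc* were higher in batch 2, by 2.01, 2.66, 2.30 and 1.99 on the log2 scale. *Lum*, *Postn*, *Fbln2* and *Serpinh1* were lower, with log2 changes of -2.75, -2.33, -2.70 and -1.18.

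Some pairs of genes that fibroblasts usually make together had different ratios in the 2 batches, in both subsets. Per kb, *Col1a2* was 0.571 and 0.662 times *Col3a1* in F4/80high replicates 1 and 2 and 5.30 times in replicate 3, and 0.494, 0.736 and 4.41 times in F4/80low replicates 1, 2 and 3. *Lum* was 0.309, 0.127 and 0.0268 times its neighbor *Dcn* in F4/80high and 0.342, 0.181 and 0.0382 times in F4/80low. *Postn* was 0.182, 0.102 and 0.0152 times *Sparc* in F4/80high and 0.166, 0.0685 and 0.0287 times in F4/80low. In contrast, *Col6a1* stayed between 2.76 and 3.90 times *Col6a2* in all 6 libraries. *Col4a1* was 2.40, 1.98 and 1.57 times *Col4a2* in F4/80high replicates 1, 2 and 3 and 2.06, 2.52 and 4.07 times in F4/80low, so replicate 3 went opposite ways in the subsets. In batch 2 the deposited totals were the smallest, 16045281 and 16204810 counts against 30292061 to 43604373 in batch 1, the row *Lars2* took 10.9% and 10.2% of all counts, and protein-coding genes held 89.4% and 90.02% of counts against 97.4% to 98.1%. The part of these in the ratios was not tested.

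**Figure D5:**
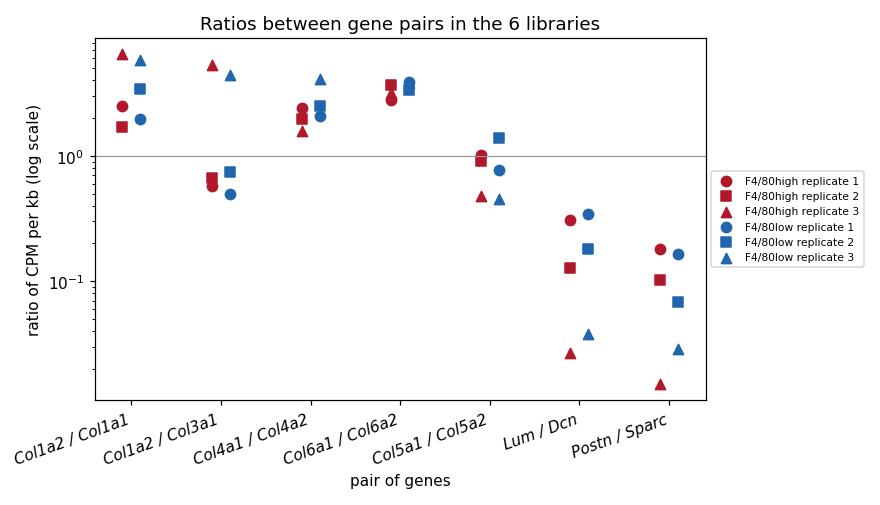
Ratio of CPM per kb (log axis) for 7 pairs of genes in each of the 6 libraries (red F4/80high, blue F4/80low, shape by replicate). The triangles of replicate 3 lie apart from replicates 1 and 2 for *Col1a2* over *Col3a1*, at 5.30 and 4.41, in both subsets.

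Genes of the same pathway outside the group were read as fixed lists. Of the other genes of collagen synthesis and processing, 24 were tested, 10 with a positive and 14 with a negative log2 fold change and a median of -0.32, and 0 were called. The 4 with the smallest p were *P3h3* at -0.78, *Loxl3* at -0.58, *Fkbp10* at -0.67 and *Plod1* at 0.65. *P4hb*, the shared subunit of the prolyl hydroxylase, was at 526, 984 and 602 CPM in F4/80high and 722, 656 and 644 CPM in F4/80low, with a log2 fold change of 0.06.

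Of the collagen receptors and uptake genes, 13 were tested, 6 with a positive and 7 with a negative log2 fold change. The median was -0.13, with 0 called by edgeR with batch and 1, *Mrc1*, by DESeq2 with batch. *Mrc1*, the mannose receptor that takes up collagen fragments, was at 276, 840 and 1311 CPM in F4/80high and 73.4, 254 and 159 CPM in F4/80low. Every F4/80high library lay above every F4/80low one. The log2 fold change came to 2.18 (SE 0.56, edgeR adjusted p 0.461) with batch. With the block it was 2.22, where edgeR called it at an adjusted p of 0.0281. DESeq2 with batch called it at an adjusted p of 0.00674. The 3 next by p were *Ctsk*, the collagen-degrading cathepsin K, at -1.53, *Pepd* at 0.67 and the collagen-binding inhibitory receptor *Lair1* at 0.56.

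Of the other matrix genes, 33 were tested, 8 with a positive and 25 with a negative log2 fold change. The median was -0.48, with 0 called by edgeR with batch and 2, *Vcan* and *Thbs1*, by DESeq2 with batch. *Vcan*, a large matrix proteoglycan that monocytes also express, was at 38.3, 11.4 and 135 CPM in F4/80high and 122, 60.8 and 384 CPM in F4/80low. It was lower in F4/80high in every pair, with a log2 fold change of -1.76 (SE 0.44, edgeR adjusted p 0.456) with batch. edgeR with the block called it at an adjusted p of 0.0281, and DESeq2 with batch at 0.0125. *Thbs1* was at -1.17, *Emilin2* at -0.81 and *Lamb1* at -0.55.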

How the data were processed

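The authors deposited, for each of 6 libraries, the raw read count of 23424 genes with the gene's length and biotype, with no normalization. Poly-A libraries were sequenced, and alignment followed the standard pipeline of the sequencing center. The aligner, the annotation and the use of strand are not given in the sources used here. Gene IDs were matched to GENCODE M21 (GRCm38, 99.3% of IDs) for coordinates. Promoters came from RefSeq (GRCm38.p6).

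Genes with the deposited biotype protein_coding and at least 10 counts in total were tested in R 4.3.3 with edgeR 4.0.16 (TMM, quasi-likelihood) and a batch term. The batch was read from the study's PCA plot. DESeq2 1.42.0, the replicate block, other size factors, filters and biotypes, no batch term and leaving out libraries were alternatives. DESeq2 with the block, the M21 biotype, leaving out replicate 2 of both subsets and the block without 1 replicate were chosen after seeing the data. CPM used TMM-normalized library sizes, and differences within pairs a prior count of 2. Depth was 16045281 to 43604373 counts per library, and 3 counts, taken as the floor, are 0.0582 to 0.342 CPM. The gene group and the lists were chosen with earlier results of these data known.

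Values were given for the 8 genes highest per length, the 6 with the smallest p in each direction at 1 CPM or more, and any called gene. Others are named by role or count. For the pathway lists the 4 genes with the smallest p are named.

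The study states 3 independent experiments, so libraries of 1 number were taken as pairs. Over 10089 genes the 2 libraries of a pair deviated together from their subset means, with r of 0.745, 0.729 and 0.907. Libraries of different number reached an r of 0.633 for replicates 1 and 2. Since replicate 3 was the other batch, these values also hold the batch difference. Within batch 1 the differences between replicates 1 and 2 had an r of 0.241 between the subsets. No library was a copy of another. The steps were tested on simulated data.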

Additional observations from a re-analysis of the deposited data

How the results depend on the processing

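The median log2 fold change of the 51 genes stayed negative under every alternative run, from -0.92 to -0.18, and from -0.92 to -0.24 when 1 library was left out. The number of positive log2 fold changes was 9, and 6 to 12 with 1 library left out. It was 4 with at least 10 counts in every library, where 35 of the genes remained, and 5 with the replicate block without replicate 3. With the block without replicate 2 it was 13, where 50 of the genes remained. No gene of the group was called with 1 library left out, and 0 to 3 genes in all. DESeq2 called 1 of the group and 150 genes in all, DESeq2 with the block 2 and 357, the replicate block 0 and 76, and the block without replicates 1, 2 and 3 called 1, 0 and 0 of the group and 315, 41 and 16 in all. The 1 was *Col14a1*, at 2.13. The block ended no call of the group and added none with edgeR on all libraries.

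Of the 17 genes given in every library by rule, 6 turned direction under some alternative. *Bgn* was 0.026 with the block without replicate 2. *P4ha1* was -0.16 to 0.23 with 1 library left out, -0.16 without replicate 2 of both subsets and -0.15 with the block without replicate 2. *Col15a1* was -0.057 to 0.75 with 1 library left out and -0.0015 with the block without replicate 3. *Col11a2* was -0.058 to 0.82 and *Lox* -0.13 to 0.44 with 1 library left out, and -0.056 and -0.13 without replicate 3 of both subsets, and -0.050 and -0.12 with the block without replicate 3. *Col8a2* was -0.0081 with RLE factors, -0.018 with DESeq2, -1.02 with the block, -1.19 with DESeq2 and the block, -3.46 to 1.44 with 1 library left out and -2.20, -0.0071 and -1.44 with the block without replicates 1, 2 and 3. The cause was not tested.

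The mean summed level of the subsets was 2316 (F4/80high) and 3089 CPM (F4/80low), and 1318 and 1692 CPM without *Sparc*, *Col1a2* and *Col3a1*. edgeR with batch called 0% of all genes, and 7.57% had an unadjusted p under 0.05, so a gene that was not called is not shown to be equal. The deposited counts of *Col4a3*, *Col2a1* and *Col13a1* were too few for a fold.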
